A study of Mus musculus with 2 samples.

Results

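The T and NK cells described here are 97 cell barcodes of 2523 that passed the quality limits, out of 3477 barcodes in all, from lesions of the mouse liver. A barcode marks the droplet of 1 captured cell, and each UMI stands for 1 RNA molecule caught in it. The limits were a minimum of 1000 UMIs and of 300 genes, a share of mitochondrial RNA of up to 25% and less than 0.5% of UMIs from Alb, the albumin gene. A kept barcode was a member if its UMIs of Cd3d, Cd3e, Cd3g, Trbc1, Trbc2 and Nkg7 summed to at least 3 and exceeded the sum of C1qa, C1qb and C1qc, genes of macrophages. The members were thus chosen by the measured UMIs of these 9 genes and of Alb in the same barcodes, and the levels of these genes only describe that choice.

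The study used the Rb family triple knockout mouse, a model of hepatocellular carcinoma, and sorted YFP-positive liver cells, in which Cre had acted on floxed alleles. Both libraries come from this genotype and from untreated animals, so there is no control genotype. The early-lesion library pooled 3 mice with no map from barcodes to mice, and the labels give no number of mice for the macroscopic-lesion library. The labels name neither the promoter that drives Cre nor the age of the animals. With 1 library per stage no difference between stages was tested, and all intervals are 95% intervals of counting error only.

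T cells recognise antigen through a receptor whose alpha and beta (or gamma and delta) chains sit in the membrane with the CD3 chains. Signalling through the CD3 chains involves the kinase Lck and the adaptor Lat. NK cells lack this receptor and read target cells through activating and inhibitory receptors such as those of the Klr family and Ncr1. Both release perforin and granzymes, and the liver holds resident populations of both, many of which carry the chemokine receptor Cxcr6.

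The early library gave 76 members of 2399 kept barcodes (3.17%, 2.50 to 3.95), and the macroscopic library 21 of 124 (16.9%, 10.8 to 24.7). The macroscopic share depended on the limit on Alb, which removed 88 barcodes of that library. Without that limit it was 9.91%. The members had a median of 2628.5 UMIs in the early and 7556 in the macroscopic library, so shares of barcodes with a UMI are read with the depth in mind. Their UMIs totalled 222273 and 162509, and 3 counts correspond to 13.5 and 18.5 CPM (UMIs of a gene scaled to a total of 1000000 in the summed members).

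The members were well apart from the rest on the genes of the choice. The sum of the 6 genes ranged from 4 to 57 (median 16) in early and from 5 to 68 (median 37) in macroscopic members. Of the other kept barcodes, 2308 of 2323 early and 98 of 103 macroscopic ones had none of these UMIs. The members nearest to the limit had sums of 4, 6, 7 and 7 (early) and of 5, 6 and 8 (macroscopic). Just outside stood 3 early barcodes with sums of 8, 7 and 4 and more C1q UMIs than that (14, 13 and 20). The libraries shared 0 barcodes.

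**Figure D1:**
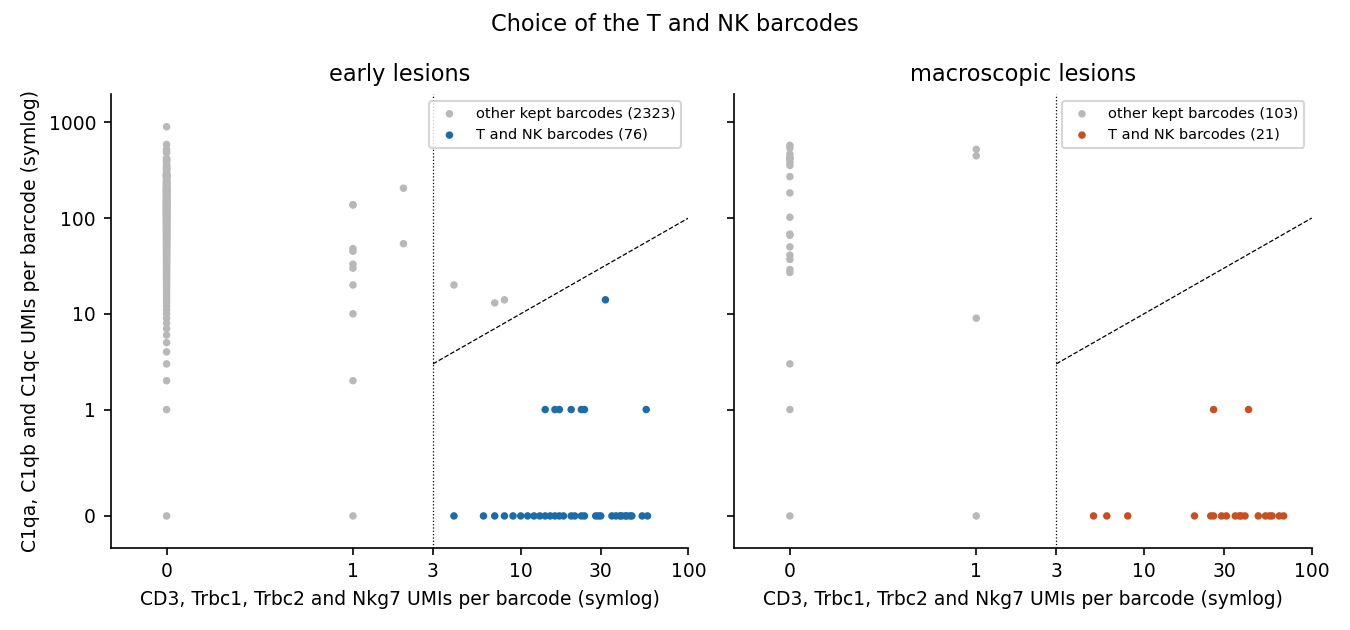
Each point is 1 or more kept barcodes, placed by the sum of the 6 lymphocyte genes (horizontal, UMIs) and of the 3 C1q genes (vertical, UMIs), on axes that are linear near 0 and logarithmic above. The dotted line is the minimum of 3 UMIs and the dashed line marks equal sums; 76 early and 21 macroscopic barcodes lie to the right of and below both, most of them with 0 C1q UMIs.

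The 3 CD3 genes, whose products form the signalling part of the T cell receptor, lie close together in the genome. In early members Cd3d, Cd3e and Cd3g had 981, 792 and 1224 CPM, and in macroscopic members 769, 462 and 1120 CPM, against 0.189 to 1.18 CPM in the other kept barcodes of either library. Cd3g (chromosome 9, 44969572 to 44980431, minus strand, GRCm38) and Cd3d (44981786 to 44987339, plus strand) start 1355 bases apart and point away from each other, and Cd3e (44998740 to 45009627, minus strand) starts 27825 bases from Cd3d, measured between RefSeq starts. The 250 bases before the start of each gene in RefSeq (GRCm38.p6) are shown, read 5′ to 3′ on the strand of the gene, because these 3 genes and Cxcr6 mark the members. Capitals mark every match, on either strand, to AGGAAG (the core bound by ETS factors), TGTGGT (RUNX), CTTTGA (TCF and LEF) or AGGTGTG (T-box).
Cd3g, chr9:44980432-44980681, minus strand: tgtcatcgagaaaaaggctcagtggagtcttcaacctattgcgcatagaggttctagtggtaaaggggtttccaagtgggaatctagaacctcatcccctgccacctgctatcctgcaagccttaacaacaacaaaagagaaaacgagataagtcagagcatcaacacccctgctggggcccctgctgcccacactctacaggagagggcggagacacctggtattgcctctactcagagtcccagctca
Cd3d, chr9:44981536-44981785, plus strand: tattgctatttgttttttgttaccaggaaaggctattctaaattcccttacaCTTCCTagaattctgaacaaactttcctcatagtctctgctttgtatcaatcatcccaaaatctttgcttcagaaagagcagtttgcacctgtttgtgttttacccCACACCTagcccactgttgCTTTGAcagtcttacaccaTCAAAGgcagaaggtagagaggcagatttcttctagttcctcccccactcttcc
Cd3e, chr9:45009612-45009861, minus strand: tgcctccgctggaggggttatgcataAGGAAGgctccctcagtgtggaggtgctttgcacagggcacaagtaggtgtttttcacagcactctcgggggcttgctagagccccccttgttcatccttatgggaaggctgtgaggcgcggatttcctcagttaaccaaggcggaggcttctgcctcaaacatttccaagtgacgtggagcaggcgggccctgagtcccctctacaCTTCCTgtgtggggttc
Cxcr6, chr9:123806227-123806476, plus strand: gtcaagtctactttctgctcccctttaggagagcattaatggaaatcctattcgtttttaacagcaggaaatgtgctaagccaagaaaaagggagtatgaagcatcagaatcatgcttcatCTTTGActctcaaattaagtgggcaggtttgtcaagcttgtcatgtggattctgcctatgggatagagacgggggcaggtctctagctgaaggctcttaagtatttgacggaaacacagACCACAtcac
These letters describe the window and are not evidence of binding. The Cd3d stretch held 1 ETS, 1 T-box and 2 TCF and LEF matches, the Cd3e stretch 2 ETS matches, 1 of them 17 bases before the start, and the Cxcr6 stretch 1 RUNX match 10 bases before the start and 1 TCF and LEF match. The Cd3g stretch held none. Among 32817 promoter stretches of this length, 29.5% held the ETS letters, 14.0% the RUNX letters, 13.8% the TCF and LEF letters and 5.10% the T-box letters. No printed matches overlapped.

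Beyond the genes of the choice, those highest in the members were mostly genes of T cells. Of the genes measured in both libraries (at least 10 CPM in 1 group and 20 UMIs over both groups), 388 of 7674, or 5.06%, were at least 2-fold higher in members than in the other kept barcodes in both libraries, with 10 CPM added to each level. Within a single library the share was 10.4% (early) and 10.0% (macroscopic). Ranked by the smaller of the 2 folds, the leading genes were Ms4a4b (a T cell membrane protein), Ccl5 (a chemokine), Trac (the constant part of the T cell receptor alpha chain), Gimap3 (a GTPase of lymphocytes), Lck, Txk (a kinase of T cells), Lat, Skap1 (an adaptor below the receptor), Bcl11b (a factor of T cell identity), Il2rb (a chain of the receptors for IL-2 and IL-15) and Cxcr6. Ms4a4b had 891 CPM in early members and 622 CPM in macroscopic ones, against 1.70 and 0.588 CPM in the others. Lck had 387 and 375 CPM against 0.851 and 2.94, and a UMI in 52 of 76 and 18 of 21 members.

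The signalling genes of the receptor followed. Of 20 listed genes, 16 of 17 measured ones were past 2-fold upward in early members and 15 of 15 in macroscopic members, beside the 10.4% and 10.0% over all genes. The median log2 ratio of the measured genes was 4.09 and 3.78, against -0.11 and -0.26 over all genes. A further list of genes shared by lymphocytes, such as the Gimap family, Ptprcap and Coro1a, had 24 of 28 and 24 of 27 measured members higher. The marker lists and the choice of barcodes rest on the same RNA, so these counts are a description and test nothing.

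Low in the members were genes of macrophages and epithelium. At least 2-fold lower in both libraries were 1029 genes (13.4%). The lowest were Wfdc17, Apoe, Apoc1, Krt18 (a keratin of epithelial cells), Cd5l and Clec4f (both of Kupffer cells, the liver macrophages), Vcam1 and Il1b. Cd5l stood at 27.0 CPM in early members against 4524 CPM in the other kept barcodes, and at 0 against 252 CPM in the macroscopic library. Apoe, a lipid carrier, had 333 and 203 CPM in members against 15364 and 9883 CPM.

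Genes of the cell cycle were low in the members. Mki67 or Top2a, genes of dividing cells, had a UMI in 2 of 76 early and 2 of 21 macroscopic members. Of 21 listed proliferation genes, 0 of 19 measured were past 2-fold upward in early members and 9 downward, beside 23.7% of all genes downward. In the macroscopic library it was 0 and 14 of 20, beside 27.2%. Cdkn2a, a locus of cell cycle inhibitors, had 0 UMIs in members and 26.0 and 47.6 CPM in the other kept barcodes. Among the Rb family itself Rbl2 was 171 and 142 CPM in members against 23.8 and 12.3 CPM, and Rb1 31.5 and 36.9 CPM against 27.8 and 28.2. These counts read the 3′ end, so they check no deletion elsewhere in the gene.

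RNA of other cell classes was concentrated in a few members. In the early library the deepest member (17700 UMIs, the next had 6624) held 482 of the 541 macrophage-list UMIs and 589 of the 619 dendritic-list UMIs of all members. In the macroscopic library the deepest member (20805 UMIs, the next had 10603) held 187 of 224 endothelial-list UMIs. Scrublet, a doublet caller, called neither of them, and called 0 early and 2 macroscopic members in all. Some of the results that these barcodes touch are given with and without them, and the others include them. UMIs of the hepatocyte list (12 genes) reached 3 or more in 20 of 21 macroscopic and 2 of 76 early members, at 880 and 108 CPM, against 8564 and 2072 CPM in the other kept barcodes. Of the B cell list, 8 of 9 genes were at 0 in early members, and Cd79a and Ms4a1 were at 0 in both libraries. The exception was Ighm, the heavy chain of IgM, with a UMI in 41 of 76 early members against 2.56% of 2029 barcodes with C1q and none of the 6 chosen genes (median 2831 UMIs). In the macroscopic library Ighm was found in 14 of 21 members and in 57.1% of the 21 barcodes of that kind (median 22367 UMIs). Where the Ighm RNA came from was not tested.

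The split by CD3 left almost nothing on the other side. A UMI of Cd3d, Cd3e or Cd3g was found in 76 of 76 early members (100%, 95.3 to 100) and in 20 of 21 macroscopic members (95.2%, 76.2 to 99.9). The CD3-zero set was thus 1 macroscopic barcode of 6447 UMIs, close to the depth of its library. It held 0 UMIs of Trac and Trbc2 and 2 of Trbc1. It held 5 UMIs of Klrd1, 4 of Klre1 and 2 of Ncr1 (receptors of NK cells), 4 of Tyrobp and 9 of Fcer1g (adaptors of such receptors), 43 of Ccl5, 11 of Xcl1 (a chemokine that draws dendritic cells) and 8 of Ifng (interferon gamma). The other 20 macroscopic members together held 0 UMIs of Ncr1 and 6 of Ifng.

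This barcode also carried much activation and stress RNA. It had 91 of the 310 Klf2 UMIs of all macroscopic members, 20 Atf3 UMIs against 16 in the other 20, and 53 UMIs each of Hspa1a and Dnajb1, which encode heat-shock proteins. Scrublet called it. Compared with it, 412 of 1086 measured genes (37.9%) were past 2-fold upward in the CD3-positive barcodes of its library and 130 (12.0%) downward. Among the genes lower in the CD3-positive barcodes were Atf3, Xcl1, Fcer1g and Dnajb1, and among those higher S100a4. Trac was also past 2-fold upward, but its 506 CPM there is below the 572 CPM that 0 UMIs in the CD3-zero barcode allow. For Trac no difference was thus detectable. The same bound holds for every gene at 0 UMIs in that barcode, such as Lck (391 CPM) and Ets1 (449 CPM). The upward count thus includes genes without a detectable difference. A set of 1 barcode gives no spread, and with each barcode thinned to 1000 UMIs the counts were 30 and 12 of 134 measured genes.

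The label names NK cells beside T cells, but in the early library the split by CD3 set no barcode with NK receptors apart, and Cd3g was found without its partners. Cd3d and Cd3e were both at 0 in 5 early members, all with Cd3g UMIs, so 71 of 76 (93.4%) were positive on Cd3d or Cd3e. To find members with NK receptors, 6 of the 14 genes of the NK marker list were used (Gzma, Klrb1c, Klrd1, Klre1, Ncr1 and Tyrobp), a set chosen after the values had been seen. At least 4 of these 6 genes had a UMI in 5 early members, in the CD3-zero macroscopic barcode and in 0 other kept barcodes of either library. Just below, 1 early member had 3 of them. Barcodes with at least 4 of the 6 genes are called barcodes with NK receptors below, but such RNA was not confined to them. The other 71 early members held 6 of 8 Klrb1c UMIs (in 6 barcodes) and 15 of 34 Klrd1 UMIs (in 7). They also held 15 of 26 UMIs of Klrk1 (in 8), but 0 of the 8 Ncr1 UMIs.

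The 5 early barcodes with NK receptors held little Trac and no Il7r (the IL-7 receptor) or Klf2. Trac had 0, 0, 0, 0 and 1 UMIs in them, and 86 UMIs in 42 of the other 71 early members. Il7r and Klf2 had 0 UMIs in the 5, which allows up to 247 CPM (the upper Poisson bound), against 497 and 564 CPM in the other 71. For Cd28, a costimulatory receptor of T cells, Cd5 and Cd6 the 5 also held 0 UMIs, but the levels of 231, 62.7 and 159 CPM in the other members are below that bound, so no difference was detectable. Cd3g, a gene of the choice, had 24, 14, 14, 10 and 6 UMIs in the 5. Trbc1 and Trbc2, also genes of the choice, were present, with 8 UMIs in 3 and 16 UMIs in 4 of the 5. Their levels were 536 and 1072 CPM, against 1167 and 2108 CPM in the other 71.

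Cd3d and Cd3e split these 5 barcodes. In 3 of them both genes were at 0, and 1 of the 3 held 2 Trdc UMIs. Another held 7 Cd3d, 3 Cd3e and 10 Trdc UMIs, the constant part of the gamma-delta receptor. The last held 5 Cd3d, 4 Cd3e and 6 Cd8a UMIs and 1 of Trac. The 5 thus share the NK genes that chose them and differ in receptor genes. Eomes, a factor of conventional NK cells, was at 0 in all of them, which allows up to 247 CPM. It was also at 0 in the other 71 early members, so it does not set the 5 apart.

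Most Ccl5 and Gzmb RNA of the early members came from these 5 barcodes. They held 223 of 335 Ccl5 UMIs (66.6%), at 79, 24, 22, 47 and 51 per barcode, or 14937 CPM (13041 to 17032) against 540 CPM (445 to 650) in the other 71. They held 25 of 26 Gzmb UMIs and, as part of their choice, all 55 of Gzma, which encode granzymes. Fcer1g had 3148 CPM in them against 193 CPM. For scale, the 5 held 14929 of the 222273 UMIs of all early members. They held 29.5% of the Nkg7 UMIs, a gene of the choice, and 15.8% of those of Ctsw. Per UMI both were higher in the 5, at 4153 against 714 CPM for Nkg7 and 1072 against 410 CPM for Ctsw. Xcl1 had 25 of 50 UMIs in the 5 and the other 25 in 13 further members, or 1675 against 121 CPM. Perforin (Prf1) was sparse, with 7 UMIs in 6 early and 5 in 2 macroscopic members.

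**Figure D2:**
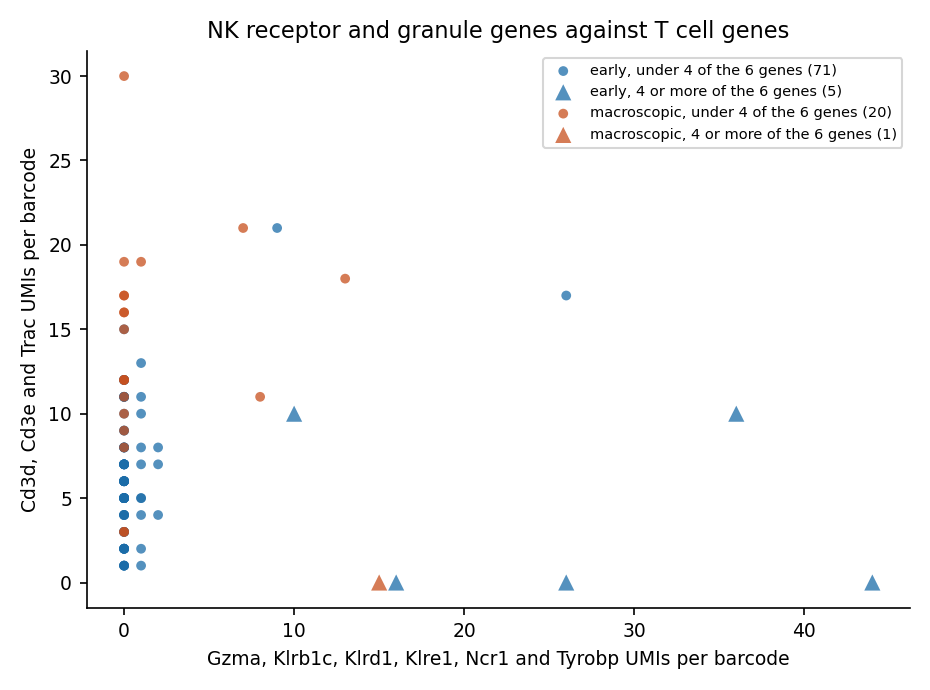
Each point is 1 member, placed by the sum of the 6 NK receptor and granule genes (horizontal, UMIs) and the sum of Cd3d, Cd3e and Trac (vertical, UMIs). Triangles have at least 4 of the 6 genes; 3 of the 5 early triangles and the macroscopic triangle lie at 0 on the vertical axis, while all 91 other members lie above 0 there. The early circle at 26 UMIs is the deepest early barcode, whose 26 UMIs are all of Tyrobp.

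Among the coreceptors, Cd4 was the more frequent in the early library. Cd4 without Cd8a or Cd8b1 was found in 20 of 76 early (26.3%, 16.9 to 37.7) and 5 of 21 macroscopic members (23.8%, 8.22 to 47.2). Cd8a or Cd8b1 without Cd4 was found in 5 of 76 (6.58%, 2.17 to 14.7) and 6 of 21 (28.6%, 11.3 to 52.2). Neither was found in 50 of 76 and 10 of 21. Macrophages also hold Cd4 RNA: 10.8% of the early and 19.0% of the macroscopic C1q barcodes without the chosen genes had a Cd4 UMI. The early members were above that share and the macroscopic members, at lower depth than those barcodes, had an interval that includes it. Cd8a had a UMI in 0.0493% and 0% of them. With each barcode thinned to 1000 UMIs, 62 of 76 and 14 of 21 members had neither coreceptor.

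Trdc had a UMI in 6 early and 2 macroscopic members. In 4 and 1 of these, Trac was not found. In the macroscopic library 26 of the 27 Trdc UMIs came from 1 barcode, and 11 UMIs of Cd163l1, a gene of gamma-delta T cells that make IL-17, were also in 1 barcode. Zbtb16, the factor of innate-like T cells such as NKT cells, had 1 UMI in each of 10 early members, all of which also had Cxcr6, and was at 0 in the macroscopic members. Il4 was similar, with 10 UMIs in 9 early members and 0 in the macroscopic library. Each of these levels of 45.0 CPM was 2.44 times the macroscopic limit of 3 counts, a value that leaves out the counting error of the 10 UMIs.

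Ccr7, the receptor that guides T cells into lymph nodes, was mostly found in other early barcodes than Cxcr6 and Il2rb. Ccr7 had a UMI in 9 early members, of which 1 had a Cxcr6 UMI and 1 an Il2rb UMI, while Cxcr6 was found in 49 of all 76 and Il2rb in 51. Cxcr6 and Il2rb were found together in 41. Among macroscopic members Ccr7 had a UMI in 3, 1 of them with Cxcr6 and 2 with Il2rb, while Cxcr6 was found in 11 and Il2rb in 12 of 21. These are few barcodes of unequal depth, so the values are a description. Thinned to 1000 UMIs, Ccr7 was found in 5 early members and 1 macroscopic member, and 0 of these had Cxcr6 or Il2rb.

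Between stages, Il2rb, Cxcr6 and Id2 were lower and Icos, Klf2 and Tnfaip3 higher in the macroscopic members. Past 2-fold, macroscopic members had 259 of 2818 measured genes higher (9.19%) and 283 lower (10.0%), and the median log2 ratio of all was -0.11. Without the deepest barcode of each library it was 226 (9.03%) and 280 (11.2%) of 2503. Stage, library, depth and the sex of the animals cannot be told apart: Xist, expressed from the inactive X of females, had 958 CPM in early and 0 in macroscopic members, and Ddx3y, of the Y chromosome, 0 and 178 CPM. The strong ratio of AY036118, a log2 ratio of 6.42 in members, was larger in the other kept barcodes, at 6.72. Lyz2, H2-Aa, Cd74, Fabp4 and Sparc rested on the deepest barcodes. Lyz2 had a log2 ratio of -7.07 with and -2.20 without them, and Sparc 4.96 and 0.

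Il2rb stood at 846 CPM (729 to 976) in early and 197 CPM (135 to 278) in macroscopic members, 4.30-fold higher in the early library (2.94 to 6.46). Cxcr6, which binds the membrane chemokine Cxcl16, stood at 679 and 191 CPM, 3.56-fold higher (2.41 to 5.43). Id2, a factor that residency and innate lymphocytes depend on, stood at 1102 and 277 CPM, 3.98-fold higher (2.89 to 5.60). The intervals of each pair did not overlap. Il2rb had a UMI in 51 of 76 early members and 12 of 21 macroscopic ones, although the latter were deeper. With each barcode thinned to 1000 UMIs the log2 ratios of -2.05, -1.78 and -1.95 were -1.43, -1.18 and -1.18. In the other kept barcodes Id2 had a log2 ratio of -1.06, and Il2rb and Cxcr6 were near 0 CPM in both libraries. The lists that hold these 3 genes were mixed. Over all genes 9.19% were past 2-fold upward and 10.0% downward, with a median log2 ratio of -0.11. Of 8 measured residency genes 0 were past 2-fold upward and 2 downward (Cxcr6 and Cxcr3), with a median log2 ratio of 0.22, and without the deepest barcodes it was 3 and 3. Of 12 measured cytokine receptors 3 were upward (Il18r1, Ifngr1 and Il4ra) and 1 downward (Il2rb), with a median of 0.12. Among 12 measured genes of NK and innate lymphocyte signalling and factors, 3 were upward (Rora, Tox and Il18r1) and 4 downward (Tyrobp, Fcer1g, Tbx21 and Id2). The median of this list was -0.44, below that of all genes. Of the early Tyrobp UMIs, 39 of 67 were in the 5 barcodes with NK receptors and the other 28 in 3 further members.

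A few further genes had lower levels. Cxcr3, a receptor for interferon-induced chemokines, stood at 265 and 105 CPM, Ctsw, a protease of cytotoxic cells, at 454 and 191 CPM, and Ly6c2, an antigen of memory T cells, at 283 and 49.2 CPM. The list of naive and memory genes was split, with 2 of 8 measured upward (Klf2 and S1pr1) and 2 downward, and a median log2 ratio of -0.11 equal to that of all genes. The downward genes were Lef1 (234 and 86.2 CPM) and Satb1 (499 and 191 CPM). Lyst, which acts in the transport of granules, stood at 454 and 30.8 CPM with a UMI in 43 of 76 and 3 of 21 members. Of 8 measured genes of cytotoxic granules, 3 were lower (Gzma, Ctsw and Cst7) and 0 higher, beside 10.0% and 9.19% of all genes. Gzma had 55 UMIs in 4 early members and 0 in the macroscopic library. Its early level was 13.4 times the macroscopic limit of 3 counts, a value that leaves out the counting error of the 55 UMIs. All 4 belong to the barcodes with NK receptors, and without those barcodes Gzma was at 0 in both libraries.

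Costimulation and helper genes were higher in the macroscopic members. Of 9 measured genes of helper and regulatory T cells, 5 were past 2-fold upward and 1 downward, beside 9.19% and 10.0% of all genes. Icos, a costimulatory receptor, stood at 117 CPM (76.4 to 171) in early and 498 CPM (396 to 620) in macroscopic members. Cd40lg, the helper signal to B cells and dendritic cells, had 1 UMI in 1 early member and 23 UMIs in 7 macroscopic ones. None of these 23 remained in barcodes thinned to 1000 UMIs. Ctla4, an inhibitory receptor, stood at 67.5 and 178 CPM, with UMIs in 3 of 76 and 9 of 21 members. Ikzf2, a factor of regulatory T cells, stood at 135 and 369 CPM and Tnfrsf4 (OX40) at 112 and 302 CPM. Foxp3, which defines regulatory T cells, had 0 UMIs in 76 early members, where 3 counts correspond to 13.5 CPM. It had 10 UMIs in 4 of 21 macroscopic members, 2 of them with a Cd4 UMI.

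The lower gene of that list was Cd4 itself, at 157 and 30.8 CPM. Its log2 ratio of -2.04 fell to -0.78 with thinned barcodes, under the 2-fold limit. Cd8a went the other way, with 58.5 CPM in 4 early and 172 CPM in 6 macroscopic members. Genes of exhaustion were sparse: Pdcd1 had 6 and 2 UMIs, Lag3 5 and 2, and Havcr2 and Tigit 0 in both libraries, while Tox stood at 76.5 and 215 CPM.

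Klf2, Gpr183 and S100a4 were also higher, while of 7 measured chemokine and sphingosine receptors 1 was upward (S1pr1) and 2 downward (Cxcr3 and Cxcr6). Klf2, a factor that drives S1pr1, the receptor that lets T cells leave tissue, stood at 526 CPM (435 to 631) in early and 1908 CPM (1701 to 2132) in macroscopic members. Without the barcodes with NK receptors it was 564 and 1403 CPM, since 91 of its UMIs were in the CD3-zero barcode. Gpr183, a receptor for oxysterols that places lymphocytes in tissue, stood at 27.0 and 769 CPM, but 97 of the 125 macroscopic UMIs came from 1 barcode. Scrublet called that barcode, and without its calls the log2 ratio of 4.40 was 2.44. A Gpr183 UMI was still found in 12 of 21 macroscopic members against 5 of 76 early ones. S100a4, of memory T cells, stood at 243 and 849 CPM with UMIs in 12 of 76 and 12 of 21 members, while in the other kept barcodes it was lower in the macroscopic library (103 and 47.0 CPM).

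Of 17 measured immediate-early and activation genes, 7 were higher and 1 lower in macroscopic members, and in the other kept barcodes it was 7 and 1 of 20, beside 12.7% and 9.97% of all genes there. Nr4a1, induced by receptor signalling, stood at 22.5 and 332 CPM, Fos at 58.5 and 492 CPM and Tnfaip3, a brake on NF-kappaB, at 94.5 and 431 CPM. Tnfaip3 had UMIs in 15 of 76 and 16 of 21 members, and its log2 ratio of 2.08 compares with -0.12 in the other kept barcodes. For the heat-shock gene Hspa1a the order was reversed, with a log2 ratio of 1.36 in members and 2.32 in the others. Mitochondrial RNA, a sign of cell quality, had a median of 7.75% of UMIs in early and 4.07% in macroscopic members. Hepatocyte-list RNA was also higher in the macroscopic members, and its part in these ratios was not tested.

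Other genes of T cells differed less between stages. Il7r stood at 463 and 511 CPM, Ltb at 1183 and 1065 CPM and Trac at 391 and 486 CPM, and the intervals of each pair overlapped. Ccl5 stood at 1507 CPM (1350 to 1678) and 1545 CPM (1359 to 1748), but Cd8a was found beside it mostly in the macroscopic library. There 7 of 21 members held all of it, 5 of them with Cd8a and 1 the CD3-zero barcode. Of the 29 early members with Ccl5 only 1 had Cd8a, which was found in just 4 early members. With each barcode thinned to 1000 UMIs, Cd8a was found in 2 of 6 macroscopic and 0 of 26 early members with Ccl5. These are few barcodes of unequal depth, and a difference in cell type was not tested. Without the barcodes with NK receptors the log2 ratio of Ccl5 of 0.04 became 1.29, at 540 and 1333 CPM. Of 7 measured chemokines, 2 were at least 2-fold higher and 5 lower in early members than in the other kept barcodes. In the macroscopic library it was 2 and 4 of 7. Over all genes, 10.4% (early) and 10.0% (macroscopic) were higher and 23.7% and 27.2% lower. Lower in early members were Ccl3, Ccl4, Ccl9, Cxcl10 and Cxcl16. Cxcl16, which binds Cxcr6, had 31.5 CPM in early members against 311 CPM.

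**Figure D3:**
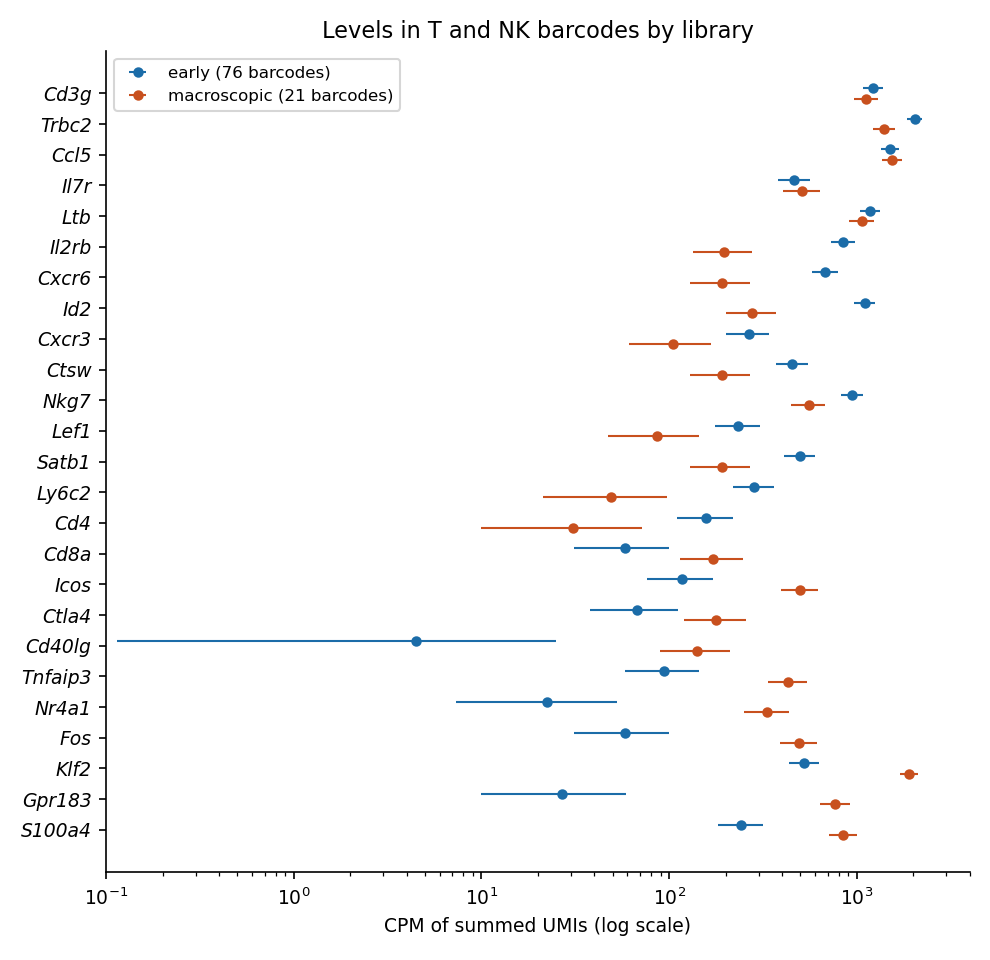
Levels of 25 genes (CPM of summed UMIs, logarithmic axis) in the 76 early and 21 macroscopic members, with exact Poisson 95% intervals. Cd3g, Ccl5, Il7r and Ltb lie together, Il2rb, Cxcr6, Id2 and Ly6c2 lie to the left in the macroscopic library, and Icos, Nr4a1, Klf2 and Gpr183 to the right; the Gpr183 value rests mostly on 1 barcode.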

How the data were processed

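The authors deposited a matrix of raw counts (UMIs) for each 10x 3′ v3 library, made with software version 3.0.2 per the file headers, which is the version of Cell Ranger in the submitters' processing notes. Those notes also name Seurat 2.3.0, without its role, and the genome build mm10. Annotation and barcode filtering before deposit are not given in the sources used here. Of the 31053 listed genes, 30934 matched GENCODE M21 (GRCm38) by Ensembl identifier, which gave positions.

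Member barcodes of a library were added up, and the sums were scaled to CPM. Folds used 10 CPM added, with a call at 2-fold. On simulated counts for the early members against the others, this called 100 of 100 genes raised 4-fold, 95 of 100 lowered 4-fold and 297 of 8795 measured genes left as they were. Levels carry exact Poisson, ratios exact conditional binomial and shares exact Clopper-Pearson 95% intervals, which cover counting error only. No test between stages was made, since each stage has 1 library. For thinning, 1000 UMIs were drawn per barcode (seed 1). Doublets were called with Scrublet in Scanpy 1.11.5 and kept, except where stated.

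The members, the 36 gene lists and the markers were chosen with earlier results of these data known. Genes outside the lists were named by rule: the 15 largest and 8 smallest folds of each comparison among genes with at least 50 CPM in 1 group, without the chosen genes. Ly6c2 was chosen after its values were seen. Alternatives were other limits on depth, mitochondrial RNA and Alb, other sums for membership, removal of doublets and mixed barcodes, thinning, equal weight per barcode, 1 CPM added and a 50 CPM filter. Some genes are not reported here.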

Additional observations from a re-analysis of the deposited data

Results flagged for a closer look

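Among the listed genes, 3 had log2 ratios of members over other kept barcodes past 2-fold in opposite directions in the libraries; these differences between the libraries were not tested. Ccr9, a receptor that guides T cells to the gut and is also carried by plasmacytoid dendritic cells, had 2.54 in the early and -2.12 in the macroscopic library. Its early members had 63.0 CPM in 11 barcodes, and its macroscopic level in the other kept barcodes was 33.5 CPM. Ifngr1, a chain of the interferon gamma receptor, had -1.02 and 1.81, at 184 and 455 CPM in members and 384 and 122 CPM in the others. Stab2, a scavenger receptor of liver endothelium, had -3.21 and 1.24, and its 30 macroscopic UMIs came from 2 barcodes, 17 of them from 1.

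Outside the quality limits, 3 early and 1 macroscopic barcodes also passed the gene sums that define a member; they are not part of any comparison.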

How the results depend on the processing

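Of 116 values of shares and counts under other settings, 104 stayed within their interval or within 1.5 times the reported count, and 12 moved further. Without the limit on Alb, the macroscopic share of members was 9.91% in place of 16.9%, and 1563 genes in place of 858 were higher in macroscopic members than in the others. With barcodes thinned to 1000 UMIs, which leaves fewer measured genes, that count was 85, macroscopic members had 76 genes higher and 111 lower than early ones, and the CD3-positive barcodes 30 higher and 12 lower than the CD3-zero barcode. With 1 CPM added, 1526 genes in place of 966 were higher in early members. The share with a CD3 UMI in early members was 93.4% after thinning and, with Cd3g left out, again 93.4%. In the macroscopic library it was 100% with doublet calls removed and without the barcodes with NK receptors, since both remove the CD3-zero barcode, and no CD3-zero comparison was possible there. Of 192 ratios of single genes, 173 stayed within their interval. A turn was counted only for genes at least 2-fold apart in the main setting, and 0 of their ratios turned. The log2 ratio of Ccl5, 0.04 in the main setting, changed sign under some settings, such as -0.18 with at most 10% mitochondrial RNA. The settings without the deepest barcodes, without barcodes with NK receptors and with Cd3g left out were chosen after seeing the data. No paired analysis was possible because each stage has 1 library. Depth limits the early members most: at a median of 2628.5 UMIs, a gene that is not found in a barcode may still be expressed.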
